A study of Homo sapiens with 4 samples.

Results

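The genes described here encode inhibitory and related immunoglobulin-like receptors of myeloid cells, namely LILRB1, LILRB2, LILRB3, LILRB4, LILRA2, SIGLEC7, SIGLEC9, SIRPA, LAIR1 and PILRA. These 10 genes were listed by name, with no threshold on their values but with earlier results of these data known. Their shares beside those of all genes therefore describe the list and are not a test of it. Levels were analysed for 8 of them, and no level of LILRB3 or LILRB4 was analysed here. Of the 8, 6 reached the abundance needed for testing, among 16817 genes tested in all. LILRB1 and LILRB2 were below it and are given as levels.

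RNA was sequenced from Kasumi-1, an established acute myeloid leukemia cell line that carries the RUNX1-RUNX1T1 fusion, in 2 samples of a control group (NC) and 2 samples in which ANP32B was knocked down by a short hairpin RNA (sh-ANP32B). The labels give the NC samples no treatment and no hairpin, while the study's methods name a control hairpin, lentiviral delivery and puromycin selection. Whether infection and selection were matched between the groups is therefore not known. If they were not, their effects cannot be told apart from those of the knockdown. The labels do not give the hairpin used in either sh-ANP32B sample, and nothing states that replicates were separate cultures, so p-values measure the spread between these samples, which may be technical. The question of the comparison is which transcripts differ in level once ANP32B, an acidic nuclear phosphoprotein, is depleted.

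Inhibitory receptors of this kind carry immunoreceptor tyrosine-based inhibitory motifs (ITIMs) in their cytoplasmic tails. On ligand binding, Src family kinases phosphorylate these motifs, which then recruit the phosphatases SHP-1, SHP-2 or SHIP-1 and dampen activating signals. Activating relatives have short tails and signal instead through the adaptors FcRγ or DAP12, and many inhibitory members have such an activating partner with a similar outer part. In myeloid leukemia, LILRB proteins, Siglecs and the CD47 receptor SIRPα are studied as surface targets.

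Levels are in TPM, a transcript abundance unit scaled for transcript length and for the total of each sample. Differences are given on the log2(TPM + 1) scale as sh-ANP32B minus NC, with the standard error (SE) or the 95% interval, and were tested in limma (two-sided, Benjamini-Hochberg adjustment over all 16817 genes). TPM keeps no sequencing depth, so depth is unknown. An exact permutation test of 2 against 2 samples cannot give a p below 0.333, and all p-values here rest on the variance that limma shares across genes. In bulk RNA, fewer cells of a type and less RNA per cell cannot be told apart.

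The target of the hairpin was checked first. ANP32B was at 383.8 and 392 TPM in the NC samples and at 51.8 and 41.2 TPM in the sh-ANP32B samples (log2 difference -3.04, SE 0.150, limma adjusted p = 0.00516). Of 8 markers fixed for Kasumi-1 blasts, 6 had a row, RUNX1T1 among them at 17.6 and 15.6 TPM in NC against 31.2 and 26.8 TPM in sh-ANP32B. KIT, MPO and CD34 are commonly described as prominent in this line, but KIT was low in every sample, at 1.55 to 3.41 TPM, and no level of MPO or CD34 was analysed here, so the labelled identity was only partly checked. The sh-ANP32B replicates differed from each other more than the NC replicates did, with a median within-group SD of 0.212 against 0.104 on the log2 scale. Their difference went with base composition across genes (Spearman rho 0.577 with GC content over 15427 genes, against -0.206 in NC; genes are not independent replicates). Replicate 2 of sh-ANP32B read higher than replicate 1 for every listed receptor with a row except LAIR1, and the part of GC content in these receptor values was not tested beyond the GC-corrected fit given beside them.

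Most of the listed receptors lie on chromosome 19. On hg38, LILRB1 (ENSG00000104972, chr19:54617158-54638022, plus strand), LILRB2 (ENSG00000131042, chr19:54273812-54281184, minus strand), LILRA2 (ENSG00000239998, chr19:54572920-54590287, plus strand) and LAIR1 (ENSG00000167613, chr19:54351384-54370558, minus strand) lie in the leukocyte receptor complex. SIGLEC9 (ENSG00000129450, chr19:51124906-51136651) and SIGLEC7 (ENSG00000168995, chr19:51142299-51153526) are neighbours on the plus strand elsewhere on the same chromosome. PILRA (ENSG00000085514) lies at chr7:100367530-100400096 and SIRPA (ENSG00000198053) at chr20:1894167-1940592, both on the plus strand.

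Stretches before an annotated transcript start of LILRA2, LILRB2, SIGLEC9 and LAIR1 are shown because these genes had higher levels in both sh-ANP32B samples than in both NC samples, and because Kasumi-1 carries a fusion of the DNA-binding RUNX1 protein. The sequences are from RefSeq (GRCh38.p14), 5′ to 3′ on the strand of the gene, and leave out annotated exons. Capitals mark, on either strand, the letters TGNGGT or the letters GAGGAA, bound by the myeloid factor PU.1. TGNGGT is a loose form of the RUNX site, TGTGGT or TGCGGT, and also takes in TGGGGT and TGAGGT. RUNX matches below are matches to this loose form. The stretches are chr19:54573540-54573697 (plus) for LILRA2, chr19:54280629-54280803 (minus) for LILRB2, chr19:51124656-51124905 (plus) for SIGLEC9 and chr19:54370559-54370808 (minus) for LAIR1. Those of SIGLEC9 and LAIR1 end at the outer start of the gene, while those of LILRA2 and LILRB2 lie inside the gene, before an inner transcript start. The inner LILRB2 stretch is shown because it is related to that of LILRA2, a choice made after the matches were seen, and the stretch before the outer LILRB2 start (chr19:54281185-54281360) held 1 RUNX match.
LILRA2: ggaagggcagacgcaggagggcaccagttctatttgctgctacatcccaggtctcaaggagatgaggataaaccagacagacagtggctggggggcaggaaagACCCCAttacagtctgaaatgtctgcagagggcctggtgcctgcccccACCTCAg
LILRB2: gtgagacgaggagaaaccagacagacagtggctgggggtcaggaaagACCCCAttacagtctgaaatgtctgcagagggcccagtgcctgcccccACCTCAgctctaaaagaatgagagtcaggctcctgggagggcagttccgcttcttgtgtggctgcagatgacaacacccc
SIGLEC9: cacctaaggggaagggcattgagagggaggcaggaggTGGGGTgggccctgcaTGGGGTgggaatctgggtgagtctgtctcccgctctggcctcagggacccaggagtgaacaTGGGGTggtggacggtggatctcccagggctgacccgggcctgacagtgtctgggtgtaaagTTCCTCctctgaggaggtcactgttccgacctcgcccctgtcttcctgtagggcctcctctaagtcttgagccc
LAIR1: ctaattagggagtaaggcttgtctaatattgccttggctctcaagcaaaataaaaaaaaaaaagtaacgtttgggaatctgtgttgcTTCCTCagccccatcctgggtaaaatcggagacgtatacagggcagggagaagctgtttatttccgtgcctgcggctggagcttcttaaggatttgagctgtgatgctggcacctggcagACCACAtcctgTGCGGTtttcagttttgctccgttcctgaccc

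In these stretches LILRA2, LILRB2 and LAIR1 each held 2 RUNX matches and SIGLEC9 held 3, and SIGLEC9 and LAIR1 each held 1 PU.1 match, with no marked match overlapping another. Only the 2 of LAIR1 read TGTGGT or TGCGGT, and those of LILRA2, LILRB2 and SIGLEC9 read TGGGGT or TGAGGT. Over windows of 300 bases, 250 before to 50 after the start, the table listed 15 windows for 8 of the receptor genes, which are the 4 LILRB genes, LILRA2, SIGLEC7, SIGLEC9 and LAIR1. These include LILRB3 and LILRB4, which have no level here, and windows of SIRPA and PILRA were not used here. The loose letters TGNGGT were in 14 of these windows and the PU.1 letters in 8, against 43.2% and 27.9% of all 35116 promoters. Windows holding TGTGGT or TGCGGT were not counted. The C/EBP letters TTGCNNAA were in 0 of the 15 and in 10.5% of all promoters. The windows are not independent of each other, because several belong to the same gene and the LILR windows are related in sequence. An LILRB2 and an LILRA2 window were identical at 204 of 270 aligned columns (75.6%), and an LILRB1 and an LILRB2 window at 228 of 252 (90.5%). A match is a description of letters and does not show that a factor bound there.

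Of the 6 receptors tested, 1 rose past an adjusted p of 0.05, PILRA, and none fell, with 2.14% of all genes tested rising past it and 3.32% changing in either direction. By the criterion of the study, an unadjusted p under 0.05 with a log2 difference over 0.5, PILRA and LILRA2 passed on the high side, 2 of 6, against 12.1% of all genes on that side and 18.6% in either direction. PILRA, LILRA2, SIGLEC9 and LAIR1, 4 of 6, had both sh-ANP32B samples above both NC samples, against 33.2% of all genes, and 54.6% of all genes did not overlap in either direction. All 6 differences were positive, that of SIRPA turning negative under 3 other scalings, and their median was 0.46, beside a median of 0.08 over all genes. With a library left out, the median ran from 0.41 without sh-ANP32B replicate 2 to 0.69 without sh-ANP32B replicate 1. Such fits take their spread from the remaining pair, so calls in them are not read as receptor results. Summed over the 8 genes with a row, the level was 170 and 166 TPM in NC against 199 and 240 TPM in sh-ANP32B.

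**Figure D1:**
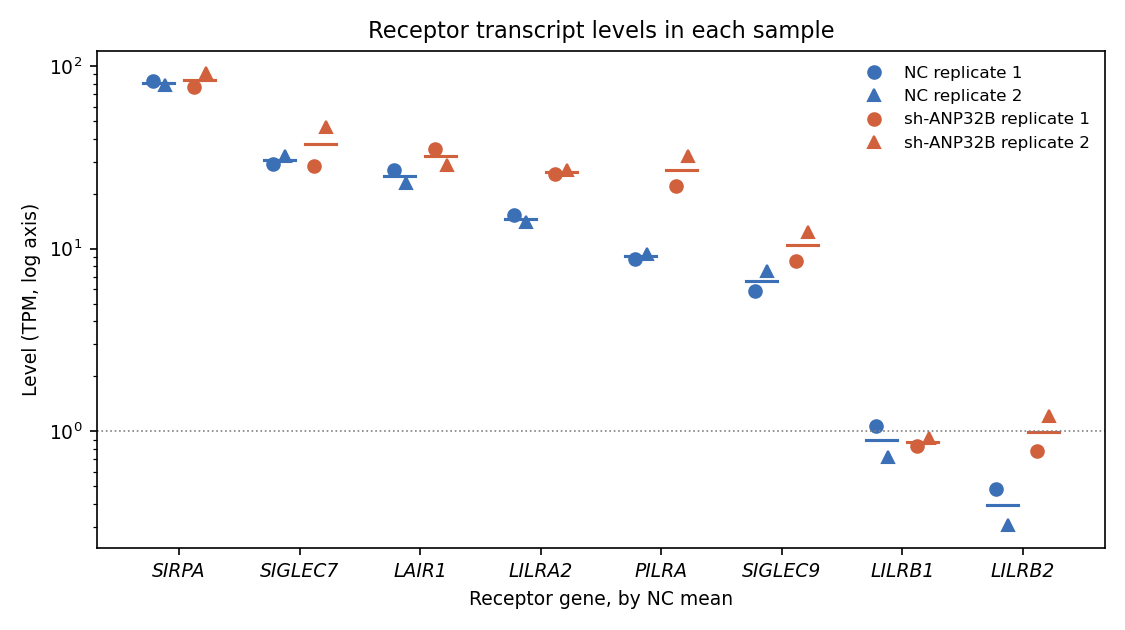
TPM (log axis) of the 8 receptor genes with a row in each of the 4 samples, ordered by the NC mean; points are samples, bars are group means and the dotted line is at 1 TPM. SIRPA lies highest, at 77.3 to 91.2 TPM, LILRB1 and LILRB2 lie near or below 1 TPM, and the groups stand farthest apart at PILRA, LILRA2 and LILRB2.

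PILRA, the inhibitory member of the paired immunoglobulin-like type 2 receptors, which binds sialylated O-glycosylated proteins, was the receptor that rose. Its level was 8.81 and 9.32 TPM in the NC samples and 22.0 and 32.1 TPM in the sh-ANP32B samples. Both sh-ANP32B samples lay above both NC samples, and they lay farther from each other than the NC samples did. The mean of 2 samples (± SD) was 9.06 ± 0.366 TPM in NC against 27.04 ± 7.11 TPM in sh-ANP32B, a ratio of 2.98. The log2 difference was 1.46 (SE 0.222, 95% interval 0.93 to 1.98, limma adjusted p = 0.0362). It lay between 1.37 and 1.54 over the 12 other fits, 1.38 with correction for GC content (adjusted p = 0.00716), and between 1.19 and 1.72 with each library left out. The adjusted p was under 0.05 in 11 of those 12 fits, and it was 0.114 without the abundance trend in the variance. The fits with GC correction or a replicate block called 1473 to 2772 genes in all, against 559 in the reported fit.

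Part of the PILRA transcript is shared with neighbours. The exons of PILRA overlap those of PILRB and of the readthrough transcript STAG3L5P-PVRIG2P-PILRB on the same strand, and 3.92% of the 100-base windows of its longest transcript occur in another gene. The readthrough was at 42.4 and 38.3 TPM in NC against 44.6 and 42.7 TPM in sh-ANP32B (log2 difference 0.11, limma adjusted p = 0.692). PILRB, the activating partner that signals through DAP12, was at 29.2 and 16.8 TPM in NC against 33.8 and 29.3 TPM in sh-ANP32B. The NC samples of PILRB were far apart and its lower sh-ANP32B sample only just exceeded the higher NC sample (log2 difference 0.49, 95% interval -0.14 to 1.12, limma adjusted p = 0.313). It was 0.87 without NC replicate 1 and 0.11 without NC replicate 2. PILRB shares 31.7% of its windows with other genes, and the difference between the changes of PILRA and PILRB was not tested.

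LILRA2 is the activating receptor of the list, with a short tail that pairs with FcRγ, and it is known for recognising immunoglobulins cut by microbial proteases. It was at 15.2 and 14.0 TPM in NC against 25.7 and 26.97 TPM in sh-ANP32B. The replicates of each group were close and the groups did not overlap. The mean of 2 samples (± SD) was 14.6 ± 0.890 TPM in NC against 26.4 ± 0.872 TPM in sh-ANP32B, a ratio of 1.80. The log2 difference of 0.81 (SE 0.164, 95% interval 0.42 to 1.20) missed the threshold, with a limma adjusted p of 0.0535. It lay between 0.73 and 0.85 over the 12 other fits, of which 4 passed the threshold. These were at least 1 TPM in every sample, GC correction, and the replicate block with or without GC correction. Those fits called 812 to 2772 genes in all, against 559 in the reported fit. The limma adjusted p of LILRA2 ran from 0.00988 with GC correction to 0.12 without the abundance trend. With a library left out the log2 difference lay between 0.75 and 0.87. Its transcript shares 17.1% of windows with the overlapping gene ENSG00000269271, which was far lower, at 1.22 and 1.04 TPM in NC against 3.22 and 1.55 TPM in sh-ANP32B.

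The inhibitory LILR genes were low. LILRB1, a receptor for a broad range of HLA class I molecules including HLA-G, was at 1.07 and 0.718 TPM in NC against 0.826 and 0.921 TPM in sh-ANP32B. These groups overlapped, and without the abundance filter the log2 difference was -0.01 with a 95% interval of -0.76 to 0.74 (limma adjusted p = 0.992). LILRB2, which binds HLA class I and angiopoietin-like proteins, was at 0.481 and 0.305 TPM in NC against 0.777 and 1.21 TPM in sh-ANP32B.

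Both sh-ANP32B values of LILRB2 lay above both NC values, at a ratio of means of 2.52, but at this level the test could not separate the groups. Without the filter its log2 difference was 0.51 with a 95% interval of -0.28 to 1.30 (limma adjusted p = 0.418). The pseudocount of 1 TPM exceeds the NC level and compresses this difference. LILRB1 and LILRB2 share 2.75% and 3.18% of their windows with each other, and exons of LILRB1 overlap an antisense gene, LILRB1-AS1, whose reads cannot be told apart because strand use in the counting is not given. A further 1581 gene IDs had no symbol and held 3.03% to 3.57% of the TPM of a sample, and whether any is an alternate copy of a LILR gene was not tested.

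SIGLEC9 and SIGLEC7 are CD33-related Siglecs, which bind sialic acid on neighbouring cells and carry ITIMs. SIGLEC9 was at 5.84 and 7.54 TPM in NC against 8.60 and 12.3 TPM in sh-ANP32B. The groups did not overlap, yet the spread within each was wide, at 6.69 ± 1.21 and 10.5 ± 2.64 TPM (SD, n = 2 each). The log2 difference of 0.57 had a 95% interval of -0.03 to 1.17 (limma adjusted p = 0.232). It passed in 0 of the 12 other fits. With a library left out it lay between 0.33, without sh-ANP32B replicate 2, and 0.80, without sh-ANP32B replicate 1.

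SIGLEC7 was the more abundant of the pair, at 28.9 and 32.3 TPM in NC against 28.4 and 46.4 TPM in sh-ANP32B. The first sh-ANP32B sample was below both NC samples and the second was above both, so the groups overlapped. The log2 difference was 0.24 (95% interval -0.33 to 0.82, limma adjusted p = 0.598). Its sign rested on 1 library, since it was 0.59 without sh-ANP32B replicate 1 and -0.10 without sh-ANP32B replicate 2. SIGLEC7 has the larger gap between the sh-ANP32B replicates, 0.69 on the log2(TPM + 1) scale against 0.47 for SIGLEC9. Neither shares a window with another gene, but exons of SIGLEC7 overlap an opposite-strand gene, ENSG00000269072, whose reads cannot be told apart.

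LAIR1, an inhibitory receptor for collagens and for C1q, was at 26.9 and 22.9 TPM in NC against 35.2 and 28.8 TPM in sh-ANP32B. The lower sh-ANP32B sample lay just above the higher NC sample, and the mean of 2 samples (± SD) was 24.9 ± 2.86 TPM in NC against 32.03 ± 4.53 TPM in sh-ANP32B. The log2 difference was 0.35 (95% interval -0.08 to 0.77, limma adjusted p = 0.292). It passed the threshold in 0 of the 12 other fits. With a library left out the log2 difference lay between 0.21 and 0.49.

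SIRPA encodes SIRPα, which binds CD47 on target cells and restrains phagocytosis, and it was the most abundant of the listed receptors. It was at 82.6 and 78.6 TPM in NC against 77.3 and 91.2 TPM in sh-ANP32B, and 88.9% of rows were below it in NC. Exons of SIRPA also overlap an opposite-strand gene, ENSG00000276649. The sh-ANP32B samples of SIRPA lay on either side of its NC samples. The log2 difference was 0.06 with a 95% interval of -0.28 to 0.40 (limma adjusted p = 0.851), and it was -0.03 under median-of-ratios scaling. The related SIRPB1, which pairs with DAP12 and shares 7.58% of its windows with other genes, was at 12.7 and 10.8 TPM in NC against 12.6 and 11.7 TPM in sh-ANP32B (log2 difference 0.05, 95% interval -0.41 to 0.50, limma adjusted p = 0.917), and it too turned negative under 3 other scalings.

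In NC the order of levels was SIRPA, SIGLEC7, LAIR1, LILRA2, PILRA, SIGLEC9, LILRB1 and LILRB2, and no neighbouring pair overlapped in its sample values. In sh-ANP32B PILRA stood above LILRA2, and LILRB2 above LILRB1. There the values of neighbours overlapped from SIGLEC7 through LAIR1 and PILRA to LILRA2, and between LILRB2 and LILRB1, so the order within these runs was not separated beyond its spread.

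**Figure D2:**
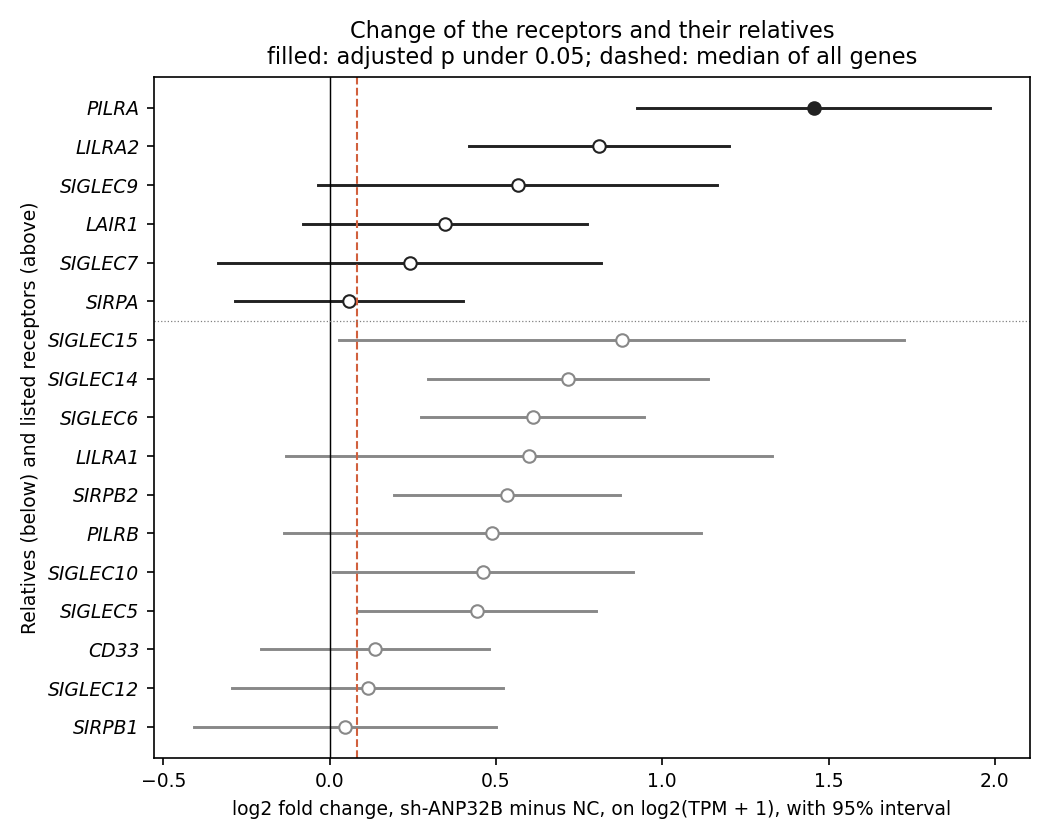
Log2 difference on log2(TPM + 1), sh-ANP32B minus NC, with 95% intervals from limma, for the 6 tested receptors (above the dotted line) and their tested relatives (below it); filled points have an adjusted p under 0.05 and the dashed line is the median of all genes. PILRA, at 1.46, is the filled point, and the interval of LILRA2, 0.42 to 1.20, also lies above 0.

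Among the relatives, 1 of 6 other LILR genes and 7 of 13 other Siglec genes were tested and none had an adjusted p under 0.05, although all 8 differences were positive, as were 9741 of 16817 over all genes. LILRA1, an activating LILR, was at 2.12 and 1.24 TPM in NC against 2.84 and 3.19 TPM in sh-ANP32B (log2 difference 0.60, limma adjusted p = 0.289). LILRA6 was listed at 0 and at 0.0400 TPM in NC against 0.622 and 1.58 TPM in sh-ANP32B and was not tested. Of the Siglecs, 6 of 7 did not overlap and were higher in sh-ANP32B, against 33.2% of all genes on that side and 54.6% in either direction.

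SIGLEC6, an inhibitory Siglec, was at 52.0 and 57.7 TPM in NC against 80.5 and 88.0 TPM in sh-ANP32B (log2 difference 0.61, limma adjusted p = 0.0664). CD33, the Siglec targeted in leukemia therapy, was at 68.3 and 58.5 TPM in NC against 69.1 and 70.1 TPM in sh-ANP32B. Its log2 difference was 0.14 with a 95% interval of -0.21 to 0.48 (limma adjusted p = 0.619). SIGLEC14, an activating Siglec that pairs with DAP12, was at 13.2 and 15.4 TPM in NC against 22.9 and 25.4 TPM in sh-ANP32B (log2 difference 0.72, limma adjusted p = 0.0751), and 12.1% of its windows occur in another gene. In the part of the leukocyte receptor complex that holds the LILR and LAIR genes, from LILRB3 to LILRB4 at chr19:54216278-54670359, 7 genes were tested. Of these, 0 had an adjusted p under 0.05. Only LILRA2 passed the unadjusted criterion, 1 of 7, against 12.1% of all genes on the high side and 18.6% in either direction. The 7 include the listed LILRA2 and LAIR1, and ENSG00000269271, which overlaps LILRA2, so they are not separate from the receptors above. Of the 7 differences 5 were positive. Their median, 0.35, is the value of LAIR1, beside 0.08 over all genes.

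Among 18 paired partners and other inhibitory receptors of myeloid cells, 13 were tested, 2 rose and none fell. Of all genes, 2.14% rose and 3.32% changed in either direction. The median difference of the 13 was 0.72 beside 0.08 over all genes. This median includes CLEC4A (1.19), which reached the abundance filter only through sh-ANP32B. CLEC4A was at 0.258 and 0.110 TPM in NC against 2.16 and 1.29 TPM in sh-ANP32B. FCGR2B, the inhibitory receptor for IgG, was at 30.1 and 31.2 TPM in NC against 121.9 and 125.2 TPM in sh-ANP32B. Its replicates were close and the groups lay far apart (log2 difference 1.98, SE 0.132, limma adjusted p = 0.00941), and 12.1% of its windows occur in another gene, nearly all in FCGR2C. MILR1, an ITIM receptor first described on mast cells, was at 20.4 and 22.9 TPM in NC against 52.1 and 42.8 TPM in sh-ANP32B (log2 difference 1.09, limma adjusted p = 0.0378, and 0.0982 without NC replicate 1).

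Most signalling partners did not pass the test. Among 9 phosphatases and kinases that act on ITIMs, 8 were tested and 1 rose (2.14% of all genes rose), FGR, a Src family kinase, from 27 and 24.5 TPM to 60.6 and 64.7 TPM (log2 difference 1.25, SE 0.147, limma adjusted p = 0.0261). The 3 phosphatases did not pass the test in the reported fit.

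PTPN6, which encodes SHP-1, was at 111.8 and 103.6 TPM in NC against 119.1 and 158.9 TPM in sh-ANP32B (log2 difference 0.35, 95% interval -0.05 to 0.76, limma adjusted p = 0.264). PTPN11, which encodes SHP-2, was at 61.8 and 66.5 TPM in NC against 60.7 and 53.7 TPM in sh-ANP32B (log2 difference -0.16, limma adjusted p = 0.535). INPP5D, which encodes SHIP-1, was at 174.3 and 162.2 TPM in NC against 222.7 and 234.1 TPM in sh-ANP32B (log2 difference 0.44, limma adjusted p = 0.0992). All 3 phosphatases had levels above that of every listed receptor other than SIRPA in each sample.

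The activating side was read from 4 genes, the adaptors and SYK, of which all 4 were tested, all 4 were higher in both sh-ANP32B samples (33.2% of all genes were) and 1 rose (2.14% of all genes did). TYROBP, which encodes DAP12, was at 65.4 and 55.4 TPM in NC against 210.6 and 270.1 TPM in sh-ANP32B (log2 difference 1.97, SE 0.169, limma adjusted p = 0.0166). FCER1G, which encodes the FcRγ chain used by LILRA2, was at 98.7 and 96.9 TPM in NC against 149 and 135 TPM in sh-ANP32B (log2 difference 0.53, limma adjusted p = 0.0736). SYK, the kinase that both adaptors recruit, was at 121.2 and 124.4 TPM in NC against 161.2 and 162.8 TPM in sh-ANP32B (log2 difference 0.40, limma adjusted p = 0.117). With GC correction, where 2772 of 15427 genes were called, SIGLEC6, FCER1G, SYK and INPP5D passed the threshold (limma adjusted p = 0.0131, 0.00988, 0.0163 and 0.0350). PTPN6 did not pass it there (0.0940). Without sh-ANP32B replicate 1 and 2, the log2 difference was 0.56 and 0.15 for PTPN6, 0.07 and 0.34 for B2M and 0.09 and 0.65 for ST3GAL6. No gene passed the threshold without the abundance trend, where 3701 of all genes had an unadjusted p under 0.05.

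**Figure D3:**
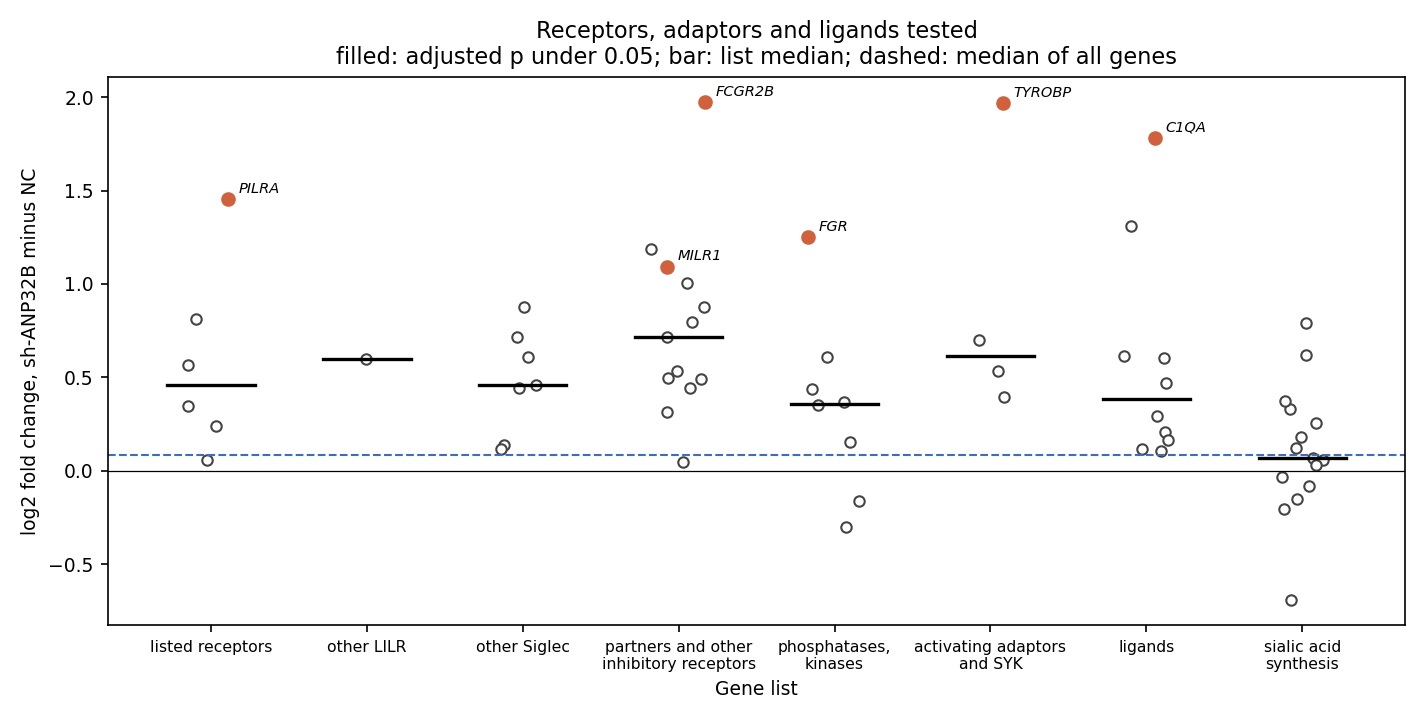
Log2 difference on log2(TPM + 1), sh-ANP32B minus NC, of every tested gene of the receptor, signalling, ligand and sialic acid lists; bars are list medians, filled points have an adjusted p under 0.05 and the dashed line is the median of all genes. PILRA, FCGR2B, MILR1, FGR, TYROBP and C1QA are the filled points, and the sialic acid list is centred at 0.07, close to the median of all genes.

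Of 18 ligand genes, 10 were tested, 1 rose and none fell, against 2.14% of all genes rising. C1QA, a chain of the LAIR1 ligand C1q, was at 1.01 and 0.918 TPM in NC against 4.14 and 7.90 TPM in sh-ANP32B, low in all 4 samples (log2 difference 1.78, SE 0.342, limma adjusted p = 0.0479, and 0.0520 to 0.0591 under 3 other scalings). CD47, the ligand of SIRPα, was at 70.6 and 80.0 TPM in NC against 105.9 and 80.7 TPM in sh-ANP32B (log2 difference 0.29, limma adjusted p = 0.353). B2M, the light chain of the HLA class I ligands of LILRB1 and LILRB2, was at 866.2 and 870 TPM in NC against 1101 and 910.1 TPM in sh-ANP32B (log2 difference 0.21, limma adjusted p = 0.418).

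Of 18 genes that make or trim the sialic acid read by Siglecs and PILRA, 15 were tested, none passed the adjusted threshold and the median difference was 0.07, beside 0.08 over all genes. CMAS, which activates sialic acid, was at 81.0 and 82.0 TPM in NC against 93.2 and 84.4 TPM in sh-ANP32B (log2 difference 0.12, limma adjusted p = 0.637). ST3GAL6, a sialyltransferase, was at 57.3 and 72.1 TPM in NC against 101.6 and 68.7 TPM in sh-ANP32B, with overlapping groups (log2 difference 0.37, limma adjusted p = 0.354).

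Markers of other blood cells were read beside the receptors. Of 6 monocyte markers 4 were tested, and their summed level was 737 to 789 TPM in NC against 1485 to 1514 TPM in sh-ANP32B, while CD14 and FCGR3A were not analysed here. LYZ, the lysozyme gene of monocytes and granulocytes, rose from 669.4 and 696.8 TPM to 1360 and 1316 TPM (log2 difference 0.97, limma adjusted p = 0.0281, and 0.105 and 0.0789 without NC replicate 1 and 2). Of 6 neutrophil markers 3 were tested, summing to 89.5 to 91.4 TPM in NC against 144.5 to 180.0 TPM in sh-ANP32B, and CSF3R rose (log2 difference 0.88, limma adjusted p = 0.0455, and 0.117 and 0.196 without NC replicate 1 and 2). Its adjusted p was 0.0598 under median-of-ratios and 0.0551 under upper-quartile scaling. The 6 Kasumi-1 blast markers with a row summed to 520 to 550 TPM in NC against 658 to 740 TPM in sh-ANP32B. Of 5 B cell markers 3 were tested, at a summed 10.5 to 11.4 TPM in NC against 4.94 to 7.97 TPM in sh-ANP32B, and of 5 erythroid markers none had a row. Of 7 T and NK cell markers 3 were tested, at a summed 151 to 166 TPM in NC against 155.5 to 182 TPM in sh-ANP32B. This sum was mostly NKG7, at 127.3 and 109.9 TPM in NC against 107 and 145 TPM in sh-ANP32B. CD2 rose (log2 difference 1.99, limma adjusted p = 0.0261), while NCAM1 did not pass the test (log2 difference -0.23, limma adjusted p = 0.538). The part of these markers in the receptor values was not tested.

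**Figure D4:**
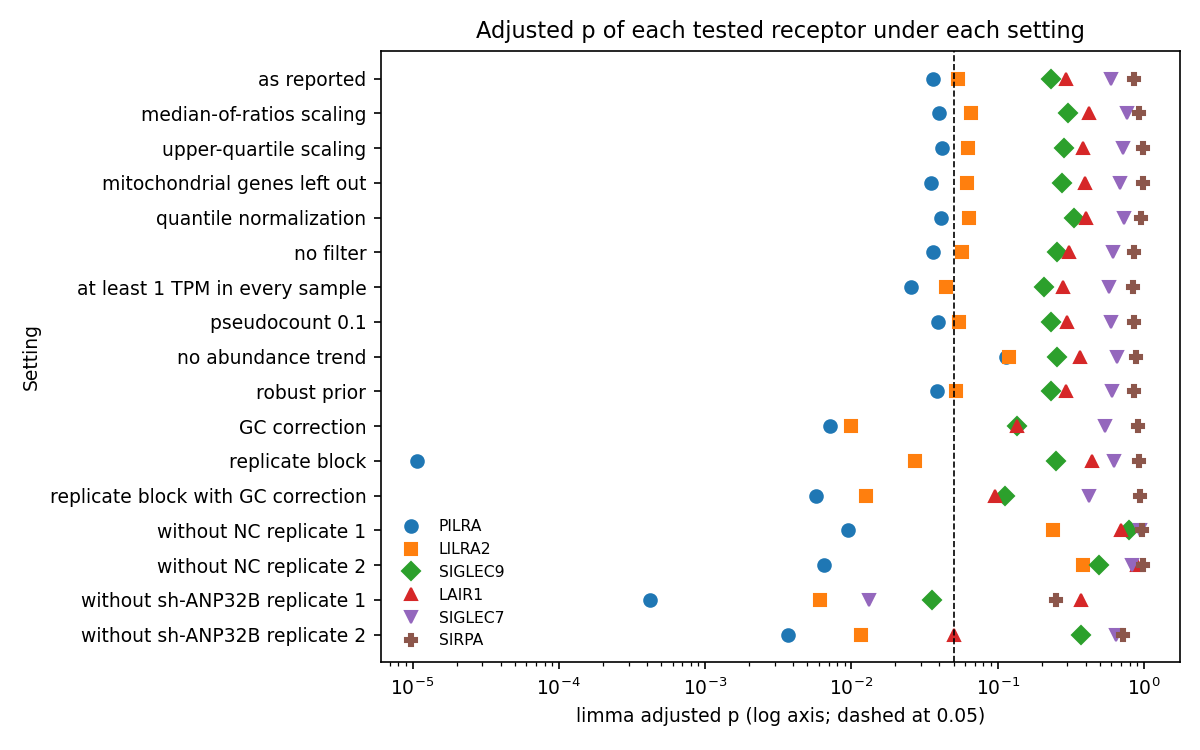
Limma adjusted p (log axis) of each tested receptor under the reported fit, the 12 other fits and the 4 fits with a library left out; each marker shape is a receptor and the dashed line is at 0.05. Among the fits of all 4 samples, PILRA lies left of the line in every one except that without the abundance trend (0.114). In these fits LILRA2 lies close to the line in most, and SIRPA stays far to its right.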

How the data were processed

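Kasumi-1 RNA was measured in 2 NC and 2 sh-ANP32B samples, prepared with an Illumina TruSeq kit per the labels. The authors deposited TPM values per Ensembl gene, from reads aligned to hg38 with HISAT2 2.0.5 (submitters' processing notes). The program, annotation and filters behind the TPM values are not given in the sources used here. The unit was taken from the values, which sum to 997812 to 998314, and no row had a mean under 0.5 TPM.

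Of 18567 gene IDs, 16986 had a symbol in GENCODE v44. Genes that reached 1 TPM in 2 or more samples were compared on log2(TPM + 1) with limma 3.58.1 (R 4.3.3), with an abundance trend and no block, after the script was tested on simulated data. DESeq2, which the study used, needs counts and was not run. The 12 other fits changed scaling (median of ratios, upper quartile, quantile, mitochondrial genes left out), filter (none, or at least 1 TPM in every sample), pseudocount (0.1), variance model (no trend, robust prior), GC correction or replicate block, and each library was also left out in turn. Shared sequence was counted in 100-base windows of the longest transcript. Tables and plots used matplotlib 3.10.9, pandas 2.3.3 and numpy 2.4.6 under Python 3.11.15.

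The receptors and lists were chosen with earlier results of these data known. All listed receptors with a row are named. From each other list, the genes with an adjusted p under 0.05 are named, at most 4, and otherwise the most abundant up to 2. PILRB, the readthrough transcript, ENSG00000269271, SIRPB1, SIGLEC14, CLEC4A, PTPN6, PTPN11, INPP5D, FCER1G, CD47 and the markers were named in addition, after their values were seen. A gene that the rule would name is not reported here. Protein sequence features were not analysed here.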

Additional observations from a re-analysis of the deposited data

How the results depend on the processing

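Of 72 values of the 6 tested receptors under the 12 other fits, 64 kept their direction and side of the threshold. The log2 difference of SIRPA (0.06) was -0.0298 under median-of-ratios scaling, -0.0045 under upper-quartile scaling and -0.0173 under quantile normalization, and that of SIRPB1 (0.05) was -0.0362, -0.0125 and -0.0507. The number of receptors called (1) was 2 with at least 1 TPM in every sample, with GC correction, and with the replicate block with or without GC correction, and 0 without the abundance trend. The genes called in all (559) were 2772 with GC correction and 0 without the abundance trend, where 3701 had an unadjusted p under 0.05. Scaling moved the split of higher and lower calls from 360 and 199 to 236 and 284 (median of ratios), 241 and 227 (upper quartile), 244 and 234 (quantile) and 308 and 227 (mitochondrial genes left out), and the median of all genes from 0.08 to between -0.01 and 0.04. With a replicate block 1473 genes were called, and 2350 with GC correction added. The deviations from the group means had r = -0.0925 across genes between samples of equal number, so the numbers are not taken to pair the samples. With each library left out, when the lone sample is assumed to vary like the remaining pair, 273 to 4079 genes and 1 to 4 receptors were called and 2 to 4 receptors passed the unadjusted criterion. Without sh-ANP32B replicate 2, SIGLEC7 turned to -0.10 and SIRPA to -0.0603, and the ranges over the libraries left out were -0.10 to 0.59 and -0.0603 to 0.18. SIRPB1 ran from -0.0586 without NC replicate 2 to 0.15 without NC replicate 1, and was -0.0012 without sh-ANP32B replicate 1. The median of the 6 receptors (0.46) ran from 0.41 to 0.69. The causes were not tested. TPM keeps no depth, so counting error is not part of any interval.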

Other observations

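CD2, a T and NK cell surface gene, was at 1.65 and 1.57 TPM in NC and at 9.48 and 9.25 TPM in sh-ANP32B (log2 difference 1.99, limma adjusted p = 0.0261), while CD3D, CD3E, CD3G and KLRD1 were not analysed here.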
